A study of Homo sapiens with 18 samples.

Results

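ROCK1P1 is a transcribed pseudogene, a partial copy of ROCK1. It is described here with its parent and with ROCK2, the closest relative of ROCK1. The members were the rows with these 3 symbols, out of 23686 gene symbols in the count and TPM tables, and all 3 passed the low-count filter in both cell lines. ROCK1P1 was included because its level was already known to rise in OCI-Ly1 at 500 nM. Its OCI-Ly1 values are therefore given as a description with no test, while TMD8 and both kinase genes were tested. Earlier results of these data were known when the members and the gene lists below were chosen. OCI-Ly1 and TMD8 are cell lines from human diffuse large B-cell lymphoma. Each line was grown with 0.01% DMSO as vehicle, with 150 nM JIB-04 or with 500 nM JIB-04, a small-molecule inhibitor of Jumonji-domain histone demethylases. Each of the 6 groups had 3 libraries of ribosome-depleted total RNA, prepared as technical triplicates, for 18 libraries in all. No label says if the triplicates stem from separate cultures, so p-values measure only the spread between these libraries, which may be technical. The lines were grown in different media (IMDM for OCI-Ly1, RPMI for TMD8), so line and medium cannot be told apart, and no treatment time is given.

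ROCK1 and ROCK2 are serine/threonine kinases that control the actin cytoskeleton. They phosphorylate myosin light chain and the myosin phosphatase subunit MYPT1, which raises actomyosin contraction, and LIM kinases, which inactivate the actin-severing protein cofilin. In B cells this pathway takes part in cell shape, migration and positioning. ROCK1P1 holds only a late part of ROCK1 and encodes no complete kinase.

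Both ROCK1 and ROCK1P1 lie on chromosome 18, and ROCK2 lies on chromosome 2. In the GENCODE 29 annotation of GRCh38, the longest ROCK1P1 transcript (ROCK1P1-203) has 2457 bases in 5 exons. Its first exon, 389 bases, holds no word of 31 bases that also occurs in ROCK1. From base 390, the start of exon 2, to base 2457 it aligns to bases 4454 to 6523 of the 33-exon transcript ROCK1-201, at 2068 aligned positions with 19 mismatches and 1 gap (99.08% identity). Of these positions, 550 lie in the ROCK1 coding sequence, with 4 mismatches, and 1518 lie after it, with 15. The next lines show how close the copies are, with 150 bases of the coding part from each transcript (ROCK1P1-203 bases 526 to 675, ROCK1-201 bases 4590 to 4739, 5′ to 3′). The 3 capitals mark the positions at which they differ.
ROCK1P1, shared part: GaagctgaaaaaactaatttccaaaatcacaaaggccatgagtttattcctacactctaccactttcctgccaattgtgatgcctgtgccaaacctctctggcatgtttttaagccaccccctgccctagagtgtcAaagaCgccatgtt
ROCK1, shared part: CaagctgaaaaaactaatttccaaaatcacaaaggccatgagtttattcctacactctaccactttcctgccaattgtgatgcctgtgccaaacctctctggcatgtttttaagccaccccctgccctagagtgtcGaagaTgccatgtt

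The other sequence of interest is where the transcript passes from its own first exon into the copy of ROCK1. Bases 270 to 419 of ROCK1P1-203 are shown, and the 30 capitals are the first bases of exon 2. The exact match to ROCK1 reaches a few bases further back, into the end of the first exon.
ROCK1P1, junction: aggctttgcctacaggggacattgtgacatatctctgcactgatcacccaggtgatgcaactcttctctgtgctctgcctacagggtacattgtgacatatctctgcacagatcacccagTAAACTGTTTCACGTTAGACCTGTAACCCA

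The deposited values came from kallisto, which assigns reads to transcripts by short words of sequence. ROCK1P1-203 holds 2427 words of 31 bases, of which 1515 (62.42%) also occur in a ROCK1 transcript. The other 912 (37.58%) occurred in no other gene of the annotation, and 0 of the 2427 were shared with ROCK2. A read can therefore be unique to the pseudogene in its first exon or over a mismatch, and elsewhere it fits both genes, so the counts of this pair are uncertain. The authors' own transcript index is not given in the sources used here, and the submitters' processing notes name hg19, so these words describe GENCODE 29 and not the index itself. The ratio of count to TPM, which reflects the length the program used, put ROCK1P1 at 0.3536 to 0.3548 of ROCK1 in all 18 libraries and ROCK2 at 0.9619. This ratio differs from that of the GENCODE lengths (2457 against 9484 bases), and it did not move with dose.

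**Figure D1:**
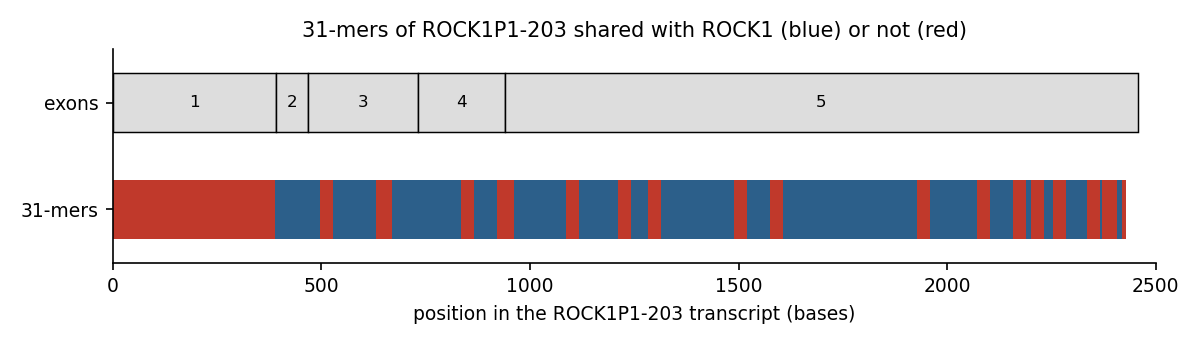
Position along ROCK1P1-203 in bases from its start. The upper row shows the 5 exons and the lower row colours the start of each 31-base word blue where it also occurs in ROCK1 (1515 words) and red where it does not (912 words). The red block at the left is the first exon and the narrow red bands are the mismatches.

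Library totals were 17579732 to 32651115 estimated counts in OCI-Ly1 and 9550092 to 20509500 in TMD8. Of 6 B-cell marker genes, all 6 were above 1 TPM on average in every group. Their summed level was 875 to 990 TPM in OCI-Ly1, and in TMD8 it was 801 to 933 TPM with DMSO and 538 to 618 TPM at 500 nM. The median of all tested TMD8 genes was also lower at 500 nM on log2(TPM + 1), by -0.22. The summed level of 4 T-cell markers was 26.6 to 29.4 TPM in OCI-Ly1 with DMSO and 12.2 to 14.1 TPM at 500 nM, almost all from CD3D and CD3G. In TMD8 it was at most 2.13 TPM, with CD3E at 0 in every library. The part of these genes in the results was not tested. In bulk RNA of a cell line, fewer cells that express a gene and less of its RNA per cell cannot be told apart.

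In OCI-Ly1, ROCK1P1 went from a level far under that of its parent to one above it, per base of transcript. Normalised read counts (CPM, counts scaled to the library total after TMM correction) were 3.65, 3.05 and 3.75 in the 3 DMSO libraries. At 150 nM they were 20.9, 19.1 and 16.0, and at 500 nM 107, 90.1 and 103. The 3 groups did not overlap, a description beside which 14% of all tested genes separated from DMSO in the same way at 150 nM, 60.7% at 500 nM and 55.6% between the doses. The means were 3.48 ± 0.378, 18.7 ± 2.49 and 100.1 ± 8.97 CPM (SD, n = 3). On the log2 scale the fitted change from DMSO was 2.41 (SE 0.13) at 150 nM and 4.83 (SE 0.12) at 500 nM, a 28.4-fold difference, and that between the doses was 2.42 (SE 0.09). These values rest on 52.3 to 92.7 estimated counts a library with DMSO and 2326 to 3601 at 500 nM. Among 15638 tested genes, ranked from the largest rise down, ROCK1P1 was 34th at 150 nM and 47th at 500 nM.

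TMD8 cells had less ROCK1P1 at every dose, and the tested rise was smaller. With DMSO the values were 1.27, 1.51 and 1.26 CPM. The 150 nM libraries had 1.74, 2.21 and 2.18 CPM and the 500 nM libraries 7.84, 7.78 and 6.65 CPM. All 3 groups again stood apart, as they did for 51.4% of genes at 150 nM and 66.4% at 500 nM, each against DMSO, and for 44.8% between the doses. At 500 nM ROCK1P1 was higher than with DMSO by a log2 fold change of 2.46 (SE 0.18, adjusted p = 2.2e-09), that is 5.52-fold, in 3 of 3 libraries. In that comparison 60.7% of 15363 tested genes were called at an adjusted p under 0.05 (29.9% higher and 30.7% lower), so a call alone sets no gene apart, and ROCK1P1 was 208th by size of rise. Between 150 and 500 nM the log2 fold change was 1.85 (SE 0.17, adjusted p = 6.9e-07), with 28.7% of genes called (13.7% higher).

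At 150 nM in TMD8 the log2 fold change of ROCK1P1 was 0.61 (SE 0.21, adjusted p = 0.027), and 44.2% of genes were called, 19.2% higher. That call was lost with DESeq2 (adjusted p = 0.075) and on both TPM scales (0.086 and 0.054). It was also lost without replicate 1 or 3 of DMSO (adjusted p 0.056 and 0.08) and without replicate 2 or 3 of 150 nM (0.08 and 0.081). The DMSO libraries held 19.7 to 26.6 estimated counts of this gene.

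Set side by side, the log2 change of ROCK1P1 in OCI-Ly1 was larger than in TMD8 by 1.81 (SE 0.27) at 150 nM and by 2.39 (SE 0.25) at 500 nM. With DMSO alone the level in OCI-Ly1 was higher by 1.26 (SE 0.19) on the log2 scale. No test was made of these values, since the gene was chosen from one of the lines.

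ROCK1, the parent, encodes a kinase whose activity drives myosin contraction and membrane blebbing. In OCI-Ly1 it had 221, 243 and 259 CPM in the DMSO libraries, 232, 254 and 269.8 CPM at 150 nM, and 238, 231 and 231 CPM at 500 nM. All 3 groups overlapped. The log2 fold change from DMSO was 0.06 (95% interval -0.07 to 0.19, adjusted p = 0.78) at 150 nM, where 0.889% of genes were called. At 500 nM it was -0.05 (95% interval -0.18 to 0.08, adjusted p = 0.53), where 53.6% of genes were called. Between the doses it was -0.11 (adjusted p = 0.15, 46.2% of genes called), and without replicate 1 of the 150 nM group it was -0.17 (adjusted p = 0.025).

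The TMD8 libraries held 305, 291 and 283.1 CPM of ROCK1 without drug, 277, 278 and 283.0 CPM at 150 nM, and 281, 286 and 282 CPM at 500 nM. The 150 nM group lay just under the DMSO group, beside 51.4% of genes that separated in either direction. The 500 nM group overlapped the DMSO group. The log2 fold change was -0.07 (95% interval -0.16 to 0.02, adjusted p = 0.22) at 150 nM and -0.05 (95% interval -0.14 to 0.04, adjusted p = 0.34) at 500 nM. The result depends on the scale: on log2(TPM + 1) ROCK1 was lower at 500 nM by -0.41 (adjusted p = 0.0024), where the median of all genes was also lower, at -0.22. With TPM values centred on the median, the difference was -0.16 (adjusted p = 0.0083).

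ROCK2, which phosphorylates many of the same substrates, was the member called lower in the main test, most clearly in OCI-Ly1 at 500 nM. In OCI-Ly1 the DMSO libraries had 98.7, 106 and 116 CPM, the 150 nM libraries 98.2, 108 and 109 CPM, and the 500 nM libraries 86.2, 78.6 and 81.3 CPM. Every 500 nM library was under every library of the other groups, which overlapped each other. Of all tested genes, 60.7% separated in either direction between 500 nM and DMSO, and 55.6% between the doses. The log2 fold change at 500 nM was -0.38 (SE 0.07, adjusted p = 1.1e-04) against DMSO, where 25.9% of genes were lower, and -0.35 (adjusted p = 2.8e-04) against 150 nM, where 21.1% were lower and 25.1% higher. At 150 nM it was -0.03 (95% interval -0.17 to 0.11, adjusted p = 0.93).

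ROCK2 in TMD8 stood at 100.1, 91.0 and 94.4 CPM in the DMSO libraries, at 88.1, 85.3 and 86.4 CPM under 150 nM, and at 90.4, 88.5 and 80.8 CPM under 500 nM. The treated libraries all lay under the DMSO libraries, the nearest of them by under 1 CPM. Of all tested genes, 51.4% separated from DMSO in either direction at 150 nM and 66.4% at 500 nM. The log2 fold change was -0.14 (SE 0.05, adjusted p = 0.043) at 150 nM and -0.13 (SE 0.05, adjusted p = 0.04) at 500 nM, close to the threshold, beside 25% and 30.7% of genes called lower. Scaled by library size alone they were -0.05 (adjusted p = 0.4) and -0.04 (adjusted p = 0.5), beside medians of all genes of 0.10 and 0.13. Both calls were also lost without replicate 1 of DMSO (-0.10 and -0.10, adjusted p 0.11 each), without replicate 3 of DMSO (0.074 and 0.063), and without replicate 2 or 3 of the treated group concerned (0.12 and 0.18 at 150 nM, 0.057 and 0.19 at 500 nM).

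**Figure D2:**
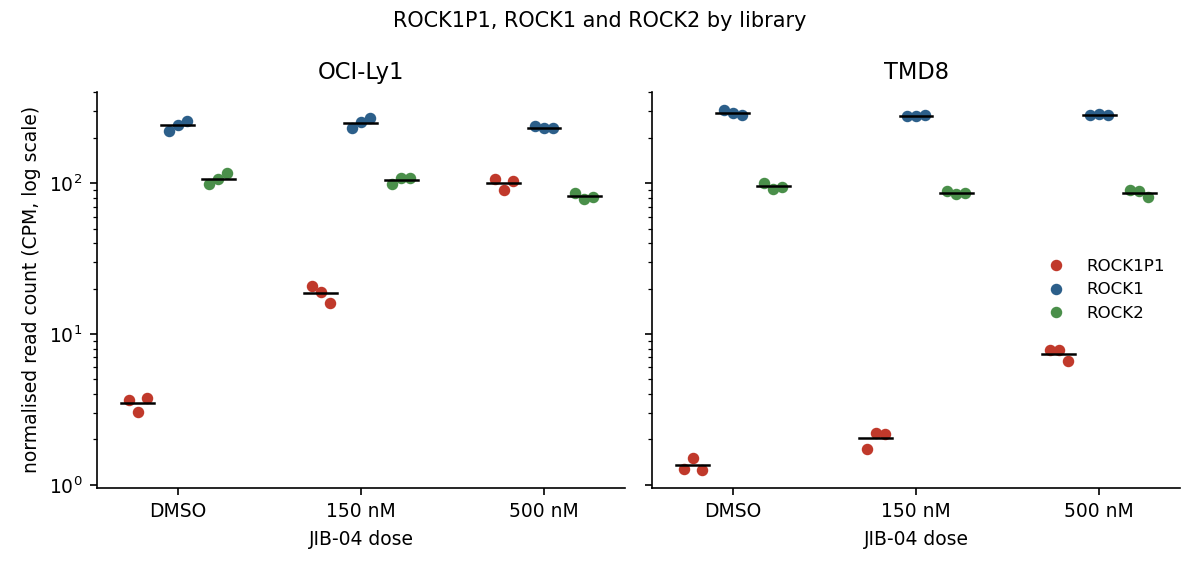
Normalised read count (CPM, log axis) of the 3 genes in each library, by dose of JIB-04, for OCI-Ly1 (left) and TMD8 (right). Points are libraries and bars are means of 3. ROCK1P1 has a mean of 3.48 CPM without and 100.1 CPM with 500 nM in OCI-Ly1, and of 1.35 and 7.42 CPM in TMD8, while ROCK1 stays between 221 and 305 CPM.

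The change of the kinase genes was compared between lines in a fit of all 18 libraries. For ROCK1 the difference between lines (OCI-Ly1 less TMD8) was 0.14 at 150 nM (95% interval -0.03 to 0.31, adjusted p = 0.23) and 0.03 at 500 nM (95% interval -0.13 to 0.20, adjusted p = 0.77), with 23.3% and 46.4% of genes called. For ROCK2 it was 0.12 (adjusted p = 0.38) and -0.22 (SE 0.09, adjusted p = 0.046). The last value lay close to the threshold. On log2(TPM + 1), where the median of all genes was 0.38, its sign turned (0.23, adjusted p = 0.11). It was no longer called with a replicate block (adjusted p = 0.053), with no low-count filter (0.074), with DESeq2 (0.098), or without any 1 of these 8 libraries: replicates 2 and 3 of OCI-Ly1 DMSO, of OCI-Ly1 500 nM and of TMD8 DMSO, and replicates 1 and 2 of TMD8 500 nM (-0.27 to -0.15). With DMSO alone, ROCK1 was lower in OCI-Ly1 by a log2 difference of -0.40 (adjusted p = 3.4e-07, 76.7% of genes called), but higher on log2(TPM + 1), by 0.55 (adjusted p = 2.5e-05), a scale on which the median of all genes was higher by 0.61. ROCK2 differed by 0.05 (adjusted p = 0.5) on the count scale.

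Since most of ROCK1P1 can take reads of ROCK1, the gain of one row was set against the change of the other. In OCI-Ly1 at 500 nM, ROCK1P1 gained 96.7 CPM (SE 5.18). ROCK1 changed by -7.91 CPM (SE 11.4). Had the gain been taken from ROCK1, its level would have been 144.5 CPM, and 233 CPM was measured. The gain equalled 40.1% of the ROCK1 level with DMSO. At 150 nM the pseudogene gained 15.2 CPM (SE 1.46), and ROCK1 was higher by 10.8 CPM (SE 15.5), an error as large as the gain.

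The sum of both rows rose in OCI-Ly1 at 500 nM, as the pseudogene did. Unlike the pseudogene, the sum overlapped between 150 nM (253 to 286 CPM) and DMSO (225 to 263 CPM). The sum was 245 ± 19.3, 271 ± 16.3 and 333 ± 12 CPM (SD, n = 3) at the 3 doses in order, a log2 change of 0.15 (SE 0.06) and 0.45 (SE 0.06), given as a description. All 3 sums at 500 nM (345, 321 and 334 CPM) were above the highest at the other doses (286). Of single genes, 60.7% separated in either direction between 500 nM and DMSO, and 55.6% between the doses.

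TMD8 does not allow the same comparison. There ROCK1P1 gained 6.08 CPM (SE 0.397) at 500 nM, equal to 2.07% of ROCK1, and ROCK1 changed by -10.1 CPM (SE 6.72), so a transfer of that size was not detectable. The TMD8 sum was 295 ± 11.3, 281 ± 3.30 and 291 ± 3.14 CPM. Its log2 fold change was -0.07 (adjusted p = 0.25) at 150 nM and -0.02 (95% interval -0.11 to 0.07, adjusted p = 0.73) at 500 nM. On log2(TPM + 1) the sum was lower at 500 nM by -0.33 (adjusted p = 0.0099), where the median of all genes was -0.22. Whether single reads were placed in the right row was not tested in either line, as the tables hold totals per gene.

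**Figure D3:**
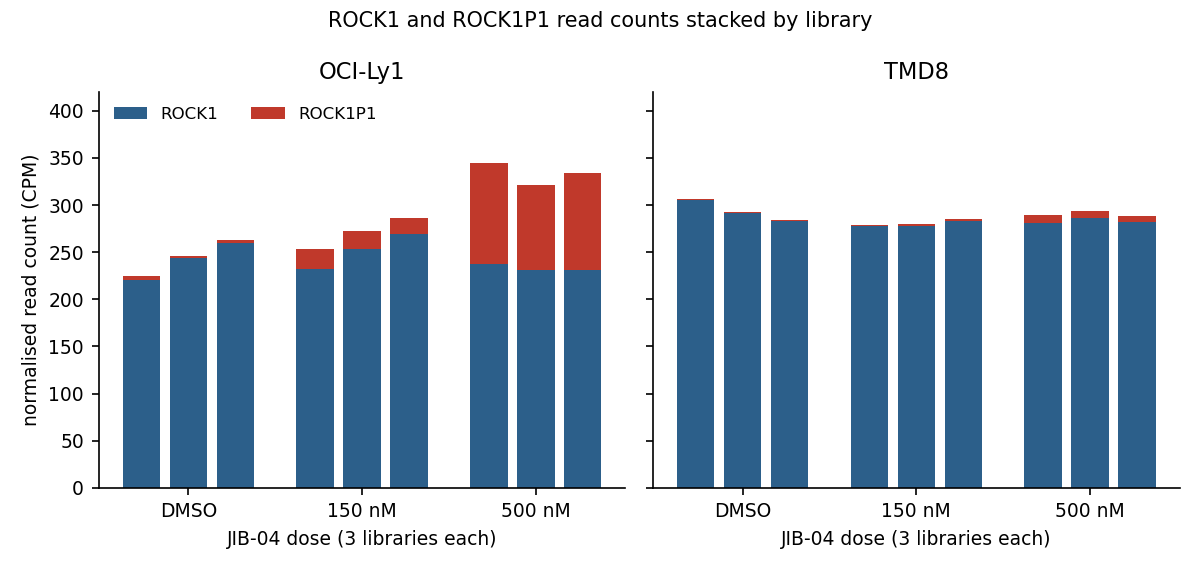
Normalised read count (CPM) of ROCK1 (blue) with ROCK1P1 (red) stacked on it, 1 bar a library, for OCI-Ly1 (left) and TMD8 (right). The blue parts in OCI-Ly1 stay between 221 and 269.8 CPM, and the 500 nM bars are taller by the red part.

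As a share of the reads given to the pair, ROCK1P1 held 1.43 ± 0.189% (SD, n = 3) in OCI-Ly1 with DMSO, 6.96 ± 1.33% at 150 nM and 29.99 ± 1.69% at 500 nM. The TMD8 shares were 0.452 ± 0.0525%, 0.728 ± 0.0889% and 2.55 ± 0.221%. The TMD8 groups did not overlap at either dose, and the exact two-sided permutation test gave p = 0.1 against DMSO at each, the smallest value that 3 against 3 libraries allow. Per length of transcript (TPM), ROCK1P1 was at 0.0409 ± 0.00548 of ROCK1 in OCI-Ly1 with DMSO, 0.211 ± 0.0434 at 150 nM and 1.21 ± 0.0965 at 500 nM. The same ratio in TMD8 was 0.0128 ± 0.00152, 0.0207 ± 0.00255 and 0.074 ± 0.0066. So the pseudogene passed its parent in TPM only in the 500 nM libraries of OCI-Ly1, where the ratio was at least 1.098.

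The order of the 3 levels in TPM changed with dose in OCI-Ly1. With DMSO, ROCK1 was at 46.1 ± 4.53 TPM, ROCK2 at 21.2 ± 2.17 and ROCK1P1 at 1.88 ± 0.234. At 150 nM, ROCK1 was at 49.3 ± 4.71 TPM, ROCK2 at 21.3 ± 1.59 and ROCK1P1 at 10.3 ± 1.15. At 500 nM, ROCK1P1 was first with 59.3 ± 4.19 TPM, then ROCK1 with 49.0 ± 0.786 and ROCK2 with 17.9 ± 0.333. No neighbours in these orders overlapped between libraries.

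TMD8 kept ROCK1 first, ROCK2 second and ROCK1P1 last at all doses. From the lowest dose up, ROCK1 was at 31.2 ± 3.95, 26.6 ± 1.24 and 23.2 ± 1.49 TPM. ROCK2 was at 10.5 ± 1.41, 8.58 ± 0.462 and 7.34 ± 0.204 TPM, and ROCK1P1 at 0.398 ± 0.0413, 0.55 ± 0.0617 and 1.71 ± 0.0964 TPM. The TPM ratio of ROCK1 to ROCK2 was 2.17 ± 0.0326 with DMSO and 2.74 ± 0.0868 at 500 nM in OCI-Ly1. The TMD8 ratios were 2.97 ± 0.101 and 3.15 ± 0.182.

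ROCK1P1 was next compared with other pseudogenes. The tables held 333 others whose symbol is that of a parent gene in the tables followed by P, with or without a number. In OCI-Ly1, 230 of these were tested, and at 500 nM 41 were higher and 48 lower. These are 17.8% and 20.9%, beside 27.7% and 25.9% of all tested genes, and the median log2 fold change was -0.12 against -0.00. On log2(TPM + 1) the split turned to 59 higher and 32 lower, and centred it was 29 and 97. Of all calls, 71.9% and 32.3% were higher on those scales. None of the 230 had a fitted change above the 4.83 of ROCK1P1, which is a description. Pseudogenes with other forms of name were not ranked. SLC7A5P1, a copy of the amino-acid transporter gene SLC7A5, came next with 2.06 (5.08 to 21.2 CPM, adjusted p = 2.0e-10). SLC7A5 itself was higher by 0.84 (adjusted p = 1.4e-08). CHEK2P2, a copy of the checkpoint kinase gene CHEK2, followed with 1.56 (adjusted p = 0.015), on 3.0 to 4.02 counts a library with DMSO. This call was lost without replicate 1 or 3 of OCI-Ly1 DMSO (adjusted p 0.053 and 0.05) and with DESeq2 (0.063).

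In TMD8, 213 of the others were tested, and at 500 nM 78 were higher and 7 lower. These are 36.6% and 3.29%, beside 29.9% and 30.7% of all tested genes, with a median of 0.29 against 0.04. On log2(TPM + 1) that split was 43 higher and 42 lower, on a scale where 18.8% of all calls were higher. Centred, the split was 101 and 10, beside 48.3% of all calls higher. ROCK1P1 was again first, with 2.46. AP1B1P1, a copy of the adaptor subunit gene AP1B1, followed with 2.35 (SE 0.35), on 3.0 to 7.0 counts a library with DMSO, which leaves their order within the errors. Next was GTF2IRD1P1 with 2.17 (SE 0.38), on 3.21 to 6.93 counts. At 150 nM in TMD8, 57 were higher and 9 lower (26.8% and 4.22%, beside 19.2% and 25% of all genes), and ROCK1P1 was 36th of 214.

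Parents were counted for the other pseudogenes that were higher at 500 nM and had a tested parent. The parent in OCI-Ly1 was also higher for 18 of 37 and lower for 6 (48.6% and 16.2%, beside 27.7% and 25.9% of all genes). In TMD8 it was higher for 19 of 70 and lower for 28 (27.1% and 40.0%, beside 29.9% and 30.7%). The parent of ROCK1P1 was not called at 500 nM in either line.

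**Figure D4:**
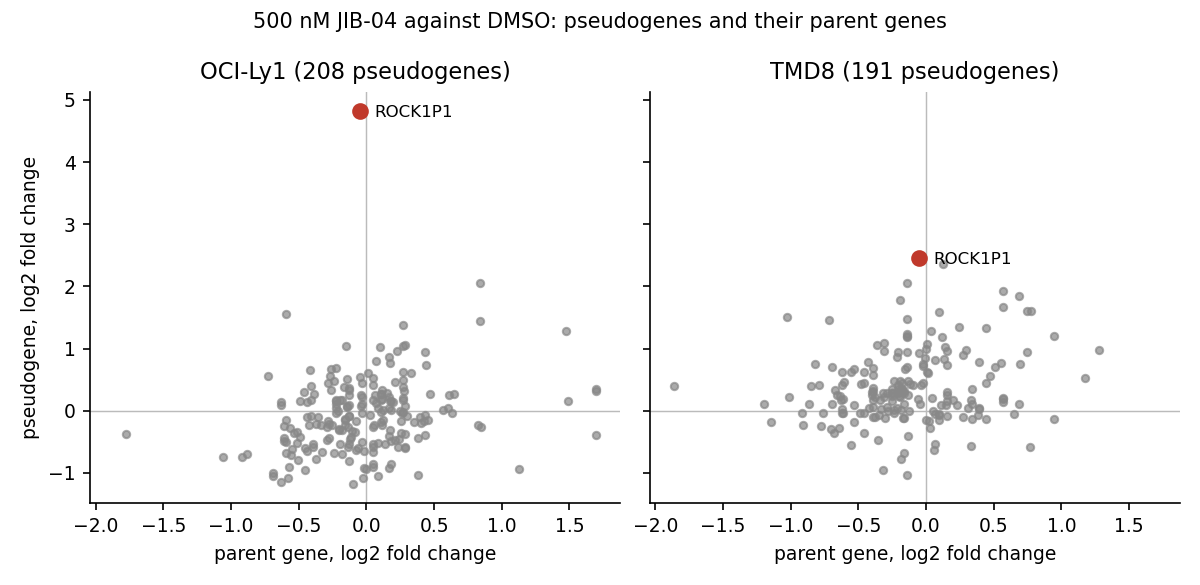
Log2 fold change at 500 nM against DMSO of pseudogenes (vertical) and of their parent genes (horizontal), for the 208 pairs tested in OCI-Ly1 and the 191 in TMD8, with ROCK1P1 in red. ROCK1P1 lies at 4.83 in OCI-Ly1 and 2.46 in TMD8, at a parent change of -0.05 in both.

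Neighbouring genes were taken from the RefSeq gene order. ROCK1P1 is the first tested gene at its end of chromosome 18. USP14, a proteasome-bound deubiquitinase, and THOC1, an mRNA export factor, follow it. In OCI-Ly1 at 500 nM their log2 fold changes were -0.05 (adjusted p = 0.6) and -0.03 (adjusted p = 0.78), beside 4.83 for ROCK1P1, and both signs turned by library size alone and on the uncentred TPM scales (0.03 to 0.11). In TMD8 both fell, by -0.54 (adjusted p = 1.5e-07) and -0.48 (adjusted p = 3.3e-06). Beyond them, C18orf56 was higher in both lines, by 1.01 (0.766 to 1.52 CPM, adjusted p = 0.0062) and 1.61 (3.02 to 9.21 CPM, adjusted p = 6.6e-08). No gene of the tables overlapped a member.

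Around ROCK1, the splicing gene SNRPD1 fell in both lines at 500 nM, by -0.65 (adjusted p = 1.4e-07) in OCI-Ly1 and -1.13 (adjusted p = 7.2e-11) in TMD8. ESCO1, a cohesin acetyltransferase, was at 0.18 (adjusted p = 0.062) in OCI-Ly1, called by library size alone (0.27, adjusted p = 0.007), with no filter (0.04), with a replicate block (0.031), on the uncentred TPM scales (0.026 and 0.025) and without replicate 3 of DMSO (0.0068). In TMD8 it was at -0.17 (adjusted p = 0.029), a call lost by library-size scaling and without replicate 1 of DMSO or any replicate of 500 nM. LOC644669, on the other side, fell by -1.0 in OCI-Ly1 (adjusted p = 7.4e-07) and rose by 1.12 in TMD8 (adjusted p = 5.0e-05). Around ROCK2, the lipid phosphatase gene LPIN1 rose by 0.68 (adjusted p = 3.1e-09) and 0.67 (adjusted p = 1.7e-09), and the disulfide isomerase gene PDIA6 fell by -0.22 (adjusted p = 0.0016) and -0.50 (adjusted p = 3.8e-07). Genes beside the members thus moved both ways.

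The genes whose pattern was nearest each member were found by the root mean square difference in log2 CPM, less the DMSO mean of the line, over the 12 treated libraries and 14482 genes tested in both lines. For ROCK1P1 they were RIMBP3B (0.504), ARHGAP23 (0.574), and MT1F, a metallothionein gene (0.785). The log2 fold changes of ARHGAP23 at 500 nM were 4.78 in OCI-Ly1 and 1.58 in TMD8, those of RIMBP3B 5.62 and 2.22. For ROCK1 they were APC (0.036), UBE3A (0.036) and KNTC1 (0.041), and for ROCK2 TUBGCP5 (0.054), USO1 (0.054) and RPL7 (0.058). These distances are descriptions, the larger ones of ROCK1P1 measured over a larger change. RIMBP3B and MT1F belong to families of near-identical copies, so their counts are uncertain.

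Genes that act with or after the kinases were followed with 4 lists of 60 genes in all. At 150 nM in OCI-Ly1, 1 of 52 tested genes was called (1.9%, against 0.889% of all genes). It was the focal-adhesion gene ZYX, with a log2 fold change of 1.03 (SE 0.23, adjusted p = 0.033). That call was lost on each TPM scale and without replicate 1 or 3 of DMSO or replicate 2 or 3 of 150 nM. At 500 nM in OCI-Ly1, 16 were higher and 19 lower (67.3%, against 53.6% of all genes). TMD8 had 13 of 57 higher and 20 lower at 150 nM (57.9%, against 44.2%). At 500 nM it had 16 higher and 29 lower (78.9%, against 60.7%). The median log2 fold change at 500 nM was -0.03 in OCI-Ly1 and -0.15 in TMD8, beside -0.00 and 0.04 over all genes. The splits move with the scale: on log2(TPM + 1) OCI-Ly1 had 18 higher and 10 lower at 500 nM, and TMD8 had 8 higher and 34 lower. By library size alone OCI-Ly1 had 19 and 14, and TMD8 had 23 and 21. Pairs in square brackets give the higher and lower counts on log2(TPM + 1). On that scale 5739 of all tested genes were higher and 2240 lower in OCI-Ly1 at 500 nM, and 1751 and 7581 in TMD8. The main-test counts of each list at 500 nM stand beside 27.7% of all tested genes higher and 25.9% lower in OCI-Ly1. In TMD8 those shares were 29.9% and 30.7%.

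The kinases nearest ROCK in sequence had 3 of 7 higher and 1 lower in OCI-Ly1 at 500 nM [4, 1]. Among 9 in TMD8, 5 were higher and 2 lower [2, 2]. Thus 57.1% and 77.8% were called, against 53.6% and 60.7% of all genes. DMPK, the myotonic dystrophy kinase, rose by 1.05 (adjusted p = 7.6e-08) and 1.02 (adjusted p = 4.5e-09). CDC42BPG rose by 0.65 (adjusted p = 6.4e-05) and 1.42 (adjusted p = 5.2e-08). CDC42BPB, which like ROCK phosphorylates myosin regulators, fell in OCI-Ly1 from 25.4 ± 1.41 to 14.1 ± 1.12 CPM (-0.85, adjusted p = 3.2e-07). In TMD8 it rose from 11.4 ± 0.928 to 15.1 ± 0.979 CPM (0.41, adjusted p = 0.0013). On log2(TPM + 1) that change was 0.01 (adjusted p = 0.87), where the median of all genes was -0.22.

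Downstream, myosin II and its phosphatase had 5 of 13 higher and 5 lower in OCI-Ly1 at 500 nM [4, 2]. The TMD8 count was 3 of 14 higher and 7 lower [2, 9], and by library size alone 4 and 4. The main test called 76.9% in OCI-Ly1 and 71.4% in TMD8, against 53.6% and 60.7% of all genes. PPP1R12C, a myosin phosphatase targeting subunit, rose by 0.47 (adjusted p = 5.7e-05) in OCI-Ly1. In TMD8 it rose by 0.92 (adjusted p = 1.4e-10), from 224 ± 12.6 to 424 ± 14.4 CPM. PPP1R14B, an inhibitor of that phosphatase, fell by -0.37 (adjusted p = 2.5e-04) and -0.92 (adjusted p = 2.1e-10). MYLK, the light-chain kinase, rose by 0.75 (adjusted p = 9.9e-04) in OCI-Ly1, a call lost on each TPM scale, and was at -0.17 (adjusted p = 0.65) in TMD8 (0.12 on the centred scale).

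LIM kinases, cofilin and other substrates had 5 of 15 higher and 7 lower in OCI-Ly1 at 500 nM [6, 4]. For TMD8 the count was 4 of 16 higher and 8 lower [1, 10]. Calls made up 80.0% and 75.0% of the list, against 53.6% and 60.7% of all genes. By library size alone both splits turned, to 6 and 5 and to 7 and 6. CFL1, cofilin itself, fell by -0.54 (adjusted p = 8.6e-08) in OCI-Ly1, from 706.5 ± 50.5 to 486 ± 6.18 CPM. In TMD8 it fell by -0.86 (adjusted p = 1.9e-10), to 429 ± 17.5 CPM from 780.5 ± 35.9. VIM, the vimentin gene, rose by 1.92 (adjusted p = 6.6e-04) in OCI-Ly1 on 5.0 to 13.0 counts a library with DMSO, and was at 0.05 (adjusted p = 0.47) in TMD8, where its DMSO level was 428.5 ± 28.2 CPM. By library size alone the TMD8 value was 0.14 (adjusted p = 0.0095), and on log2(TPM + 1) it was -0.33 (adjusted p = 0.02). The medians of all genes were 0.13 and -0.22 on those scales.

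The actin genes and targets of SRF, the transcription factor that responds to free actin, had 3 of 17 higher and 6 lower in OCI-Ly1 at 500 nM [4, 3], and by library size alone 4 and 4. In TMD8, 4 of 18 were higher and 12 lower [3, 13]. The called share was 52.9% in OCI-Ly1 and 88.9% in TMD8, against 53.6% and 60.7% of all genes. ACTB, the cytoplasmic actin gene, fell by -0.64 (adjusted p = 7.9e-11) in OCI-Ly1, from 3319 ± 60.7 to 2135 ± 37.7 CPM. The TMD8 fall was -1.05 (adjusted p = 1.3e-10), from 6995 ± 459 to 3378 ± 77.5 CPM. ZYX rose by 2.39 (adjusted p = 2.7e-08) in OCI-Ly1, to 6.20 CPM from a DMSO mean of 1.2. In TMD8 it was at 109 CPM with DMSO and 98.4 CPM at 500 nM (-0.15, adjusted p = 0.025), a call lost by library size alone (-0.05, adjusted p = 0.37) and without TMD8 DMSO replicate 2 or TMD8 500 nM replicate 1 or 2. CYR61, a secreted matrix protein gene tested in TMD8 alone, rose there by 3.13 (adjusted p = 1.4e-07), from 0.705 to 5.99 CPM.

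**Figure D5:**
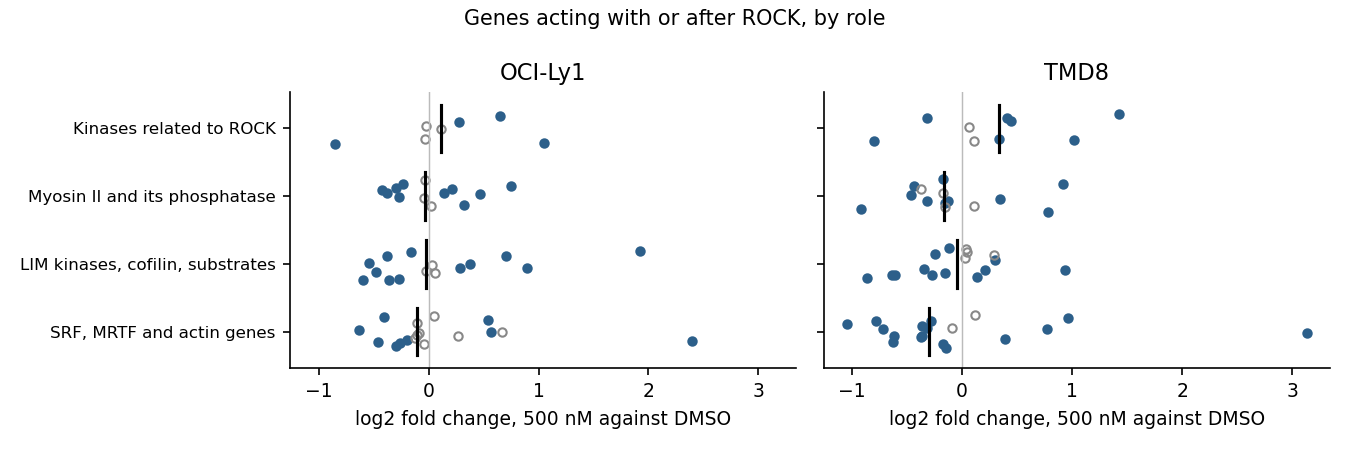
Log2 fold change at 500 nM against DMSO of each tested gene in the 4 lists, OCI-Ly1 on the left and TMD8 on the right. Filled points passed an adjusted p of 0.05, open points did not, and the black bar is the list's median. Calls lie on both sides of 0 in every list.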

How the data were processed

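RNA was measured by paired-end sequencing (101 cycles) of ribosome-depleted libraries, per the labels' protocols. The authors deposited estimated counts and TPM per gene symbol for each line. The submitters' processing notes name kallisto 0.46.0, R 4.3.1, DESeq2 1.40.2 and hg19; index, annotation and strand setting are not given in the sources used here. The deposited TPM values sum to 1000000 a library, and the deposited estimated counts are not scaled for depth.

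The estimated counts were rounded and fitted with edgeR 4.0.16 in R 4.3.3 (quasi-likelihood test, TMM, low-count filter by group, a term per group, 9 libraries a line). Adjustment followed Benjamini and Hochberg over all tested genes, with calls at an adjusted p under 0.05. Lines were compared in a fit of all 18 libraries. The code was tested on simulated data. Alternatives were library size alone, no low-count filter, a replicate block, DESeq2 1.42.0, limma 3.58.1 on log2(TPM + 1), log2(TPM + 0.1) and centred log2(TPM + 1), and leaving out each library. Fold changes on the TPM scales understate low genes.

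The members and lists were chosen with earlier results of these data known. Named genes were the members, up to 3 tested neighbours on each side, 2 genes a list and line with the largest called change at 500 nM, the 3 genes nearest each member in pattern, and 3 pseudogenes a line with the largest rise. Not every list or gene so named is reported here. Pairs of libraries in a group all differed by more than sampling noise. Sequences are from GENCODE 29 transcripts (GRCh38), so no genome coordinates are given beside the hg19 values. RefSeq (GRCh38.p14) matched 22628 of 23686 symbols and gave gene order. Single libraries are limited by counting error and by the spread beyond it, and reads carried no molecular identifiers.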

Additional observations from a re-analysis of the deposited data

Results flagged for a closer look

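For these genes a test of the difference between lines at 500 nM passed the threshold, in 1 fit of all 18 libraries (edgeR, log2 fold change in OCI-Ly1 less that in TMD8). ROCK2 was tested as a member. The other genes were picked because they had been called in opposite directions in the lines at 500 nM. That choice used these same libraries, so their passing was largely set beforehand and their adjusted p-values are no separate evidence. ROCK2 was lower in 3 of 3 libraries of each line, where 60.7% (OCI-Ly1) and 66.4% (TMD8) of genes separated from DMSO in either direction. The difference between lines for ROCK2 was -0.22 (adjusted p = 0.046). The call was lost with a replicate block (adjusted p = 0.053), with no filter, with DESeq2 and in 8 fits that left out 1 library (-0.27 to -0.15). On log2(TPM + 1), where the median of all genes was 0.38, the sign turned (0.23). For CDC42BPB it was -1.23 (adjusted p = 4.5e-08), lower in OCI-Ly1 and higher in TMD8. For GREB1, a neighbour of ROCK2, it was -0.73 (adjusted p = 0.0019), from log2 fold changes of -0.39 in OCI-Ly1 and 0.37 (adjusted p = 0.039) in TMD8. That TMD8 call was lost with DESeq2 (adjusted p = 0.064), on the uncentred TPM scales (0.05 and 0.09, adjusted p = 0.65 each), without replicate 1 or 2 of DMSO and without any replicate of 500 nM (0.22 to 0.54 over the libraries left out). For LOC644669, a neighbour of ROCK1, it was -2.09 (adjusted p = 1.2e-08), and for ZYX it was 2.58 (adjusted p = 2.3e-12). Line and medium cannot be told apart in any of them, and 46.4% of all tested genes passed this test.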

How the results depend on the processing

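Over the results of the 3 genes, the lists, the pseudogenes and the counts of genes called, 249 of 328 values under other settings were rated unchanged. With 1 library left out, 290 of 330 were. For tested changes, unchanged meant the same direction and the same side of the threshold. For untested changes and for shares it meant a move smaller than the SD between libraries. For counts of calls it meant staying within a set factor of the main count. Of other genes named with a called change, none reversed under the alternatives run. Among uncalled ones, USP14 and THOC1 in OCI-Ly1 at 500 nM gave 0.03 and 0.06 by library size alone, 0.08 and 0.10 on log2(TPM + 1), 0.09 and 0.11 on log2(TPM + 0.1), and -0.10 to 0.0013 and -0.10 to 0.03 with a library left out. VIM in TMD8 gave -0.33 on each uncentred TPM scale and -0.07 centred, and MYLK in TMD8 0.12 centred. Counts of the pathway and pseudogene members called were added as results after seeing the data.

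For ROCK1P1 in OCI-Ly1, log2(TPM + 1) gave 1.97 at 150 nM and 4.39 at 500 nM, and the centred scale 1.94, 4.16 and, between doses, 2.23. In TMD8 at 150 nM it was 0.62 with DESeq2, 0.15 on log2(TPM + 1) and 0.38 on log2(TPM + 0.1), no longer past the threshold. Its share of summed TPM in place of counts was 3.93%, 17.4% and 54.7% for OCI-Ly1 (DMSO, 150 nM, 500 nM), while for TMD8 it was 1.27%, 2.03% and 6.89%. The sum of ROCK1 and ROCK1P1 in OCI-Ly1 was 0.31, 1.16 and 0.85 on log2(TPM + 1) (150 nM, 500 nM, between doses), 0.31, 1.18 and 0.86 on log2(TPM + 0.1), and 0.28, 0.94 and 0.66 on the centred scale. In TMD8 that sum was 0.02 and 0.07 by library size alone, at 150 and 500 nM, and at 500 nM -0.33 and -0.34 on the TPM scales, and between doses -0.12 and -0.13. TPM values weigh a pseudogene read by its shorter length, which sets the larger sums and shares.

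For ROCK1 in OCI-Ly1 at 500 nM, library size alone gave 0.04 and both TPM scales 0.09, and between doses the centred scale gave -0.20 (adjusted p = 0.047). In TMD8 library size alone gave 0.02 at 150 nM and 0.04 at 500 nM, and the centred scale -0.12 (adjusted p = 0.044) and -0.16. On the TPM scales ROCK1 at 500 nM was -0.41 and -0.42. Between doses in TMD8 it was -0.02 with no low-count filter, -0.19 and -0.20 on the TPM scales and -0.04 centred. The ROCK1 difference between lines at 500 nM was -0.0037 by library size alone, and 0.50 and 0.52 on the TPM scales (adjusted p = 0.0028 each). With DMSO it was 0.55 and 0.56 on the TPM scales. Medians of all genes on those scales were 0.38 and 0.50 at 500 nM, and 0.61 and 0.88 with DMSO.

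For ROCK2 in OCI-Ly1 at 150 nM, both TPM scales gave 0.01. In TMD8 at 150 nM it was -0.05 by library size alone, -0.12 with no filter, -0.13 with DESeq2, and -0.26 and -0.29 on the TPM scales, and at 500 nM -0.04 by library size alone. Between doses it was -0.04 with no filter, -0.01 with DESeq2, -0.20 and -0.22 on the TPM scales and -0.04 centred. The ROCK2 difference between lines at 500 nM was -0.20 with no filter, -0.19 with DESeq2, and 0.23 and 0.27 on the TPM scales. With DMSO it was 0.20 by library size alone, 0.95 and 1.01 on the TPM scales and 0.23 centred, all past the threshold. Medians of all genes in that comparison were 0.12, 0.61, 0.88 and -0.11 in the same order. Except where stated, the cause of these changes was not tested.

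With each library left out in turn, the log2 fold changes ranged as follows. ROCK1P1 in TMD8 at 150 nM gave 0.55 to 0.70. ROCK2 gave -0.08 to 0.04 in OCI-Ly1 at 150 nM, -0.17 to -0.10 and -0.17 to -0.09 in TMD8 at 150 and 500 nM, and -0.03 to 0.05 between doses. ROCK1 in OCI-Ly1 gave -0.11 to 0.0048 at 500 nM and -0.17 to -0.06 between doses. The TMD8 sum at 500 nM gave -0.05 to 0.01. The difference between lines at 500 nM gave -0.02 to 0.09 for ROCK1 and -0.27 to -0.15 for ROCK2, and ROCK2 with DMSO gave -0.02 to 0.10. The ROCK2 difference was no longer called in 8 of these fits: without OCI-Ly1 DMSO replicate 2 or 3, OCI-Ly1 500 nM replicate 2 or 3, TMD8 DMSO replicate 2 or 3, or TMD8 500 nM replicate 1 or 2.

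Genes called in OCI-Ly1 at 150 nM were 139 by the main test, 323 with no filter, 242 with DESeq2, 61, 74 and 50 on the 3 TPM scales, and 65 to 339 with a library left out, the highest without replicate 1 of 150 nM and the lowest without its replicate 2; without replicate 2 of DMSO they were 86. There the pathway lists had 0 members called on each TPM scale and 0 to 1 with a library left out. The TMD8 pseudogenes other than ROCK1P1 had 66 calls at 150 nM, 42 with DESeq2 and 43 to 66 with a library left out, the lowest without replicate 3 of 150 nM. Of all OCI-Ly1 calls at 500 nM, 51.6% were higher, against 64.0% by library size alone, 71.9% on log2(TPM + 1) and 32.3% centred. The TMD8 shares were 49.3%, 59.4%, 18.8% and 48.3%. In the same order, medians of all genes at 500 nM were -0.003, 0.084, 0.101 and -0.124 in OCI-Ly1. For TMD8 they were 0.041, 0.134, -0.219 and 0.035.

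The replicate numbers were not treated as pairs: same-numbered libraries correlated by -0.055 to 0.146 in their deviations, and not every value was over 0.1. With a replicate block the ROCK2 difference between lines at 500 nM was -0.22 (adjusted p = 0.053), no longer past the threshold, and no other result of the members changed its call. Depth limits ROCK1P1 in TMD8, where DMSO libraries held 19.7 to 26.6 counts of it.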
